A study of Rattus norvegicus with 8 samples.

Results

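The NF-kappaB genes examined here were 5 subunits of the transcription factor (Nfkb1, Nfkb2, Rel, Rela and Relb) and 5 inhibitors and feedback genes (Nfkbia, Nfkbib, Nfkbie, Bcl3 and Tnfaip3). They were chosen by name, with earlier results of these data known. Every probe set whose platform gene symbol was exactly one of these names was taken. The arrays measured 8 of these 10 genes with 10 probe sets, among 11217 genes with a single symbol; Rel and Nfkbie were not analysed here. Bcl3 had 3 probe sets and each of the others 1.

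The dorsal-caudal quadrant of lungs from male Sprague-Dawley rats weighing 340 to 400 g supplied the RNA, which was measured on 1-colour Affymetrix rat arrays. In 3 rats the lung was ventilated in the supine position and in 3 in the prone position, both with large breaths (high Vt, 18 mL per kg), 40 breaths per minute and a positive end-expiratory pressure of 0 cmH2O for up to 3 hours, after anaesthesia, tracheotomy and cannulation of the jugular vein. The lungs of 2 rats were not ventilated and served as controls; the labels do not say what surgery these rats had. The titles of supine samples read SVt and those of prone samples HVt, while both groups carry the condition High Vt. The comparisons bear on whether injurious ventilation altered these transcripts in this region and whether body position changed that.

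NF-kappaB is a family of transcription factors that act as pairs of subunits and wait in the cytoplasm, bound by IkappaB proteins. Stress and inflammatory signals activate the IkappaB kinase, IkappaB is destroyed, and the freed subunits enter the nucleus and switch on cytokine, chemokine and adhesion genes. The genes of several subunits and inhibitors are themselves known targets, so the pathway feeds back on itself. In lung injury it is known for driving the recruitment of leukocytes.

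The DNA ahead of a transcript start of these genes is shown because several carry the short sequence that NF-kappaB is known to bind. RefSeq promoter sequences of the GRCr8 assembly were found for 9 of the 10 genes, from 250 bases before to 50 after a transcript start. For Nfkb1, Nfkb2, Rel, Nfkbia and Tnfaip3 that start lies inside the annotated span of the gene. The textbook kappaB consensus, a run of G, a purine, any pair of bases, pyrimidines and closing C bases, was searched on both strands. It occurred in 7 of the 9 windows, against 7.51% of all 33469 rat windows of the same length. The exact form GGGACTTTCC was read from the Nfkb2 window, so its match there was fixed in advance. Of the other windows of these genes only that of Tnfaip3 held it, where 0.111% of all windows did. These matches are also counted under the consensus. The last 120 bases before the start are given 5′ to 3′ on each gene's strand, with matches in capitals, for the feedback genes Tnfaip3 (chr1:15543980-15544099, minus strand), Bcl3 (chr1:88613556-88613675, minus strand) and Nfkbia (chr6:78597073-78597192, minus strand), and for the subunits Nfkb2 (chr1:255108254-255108373, plus strand) and Rela (chr1:212354216-212354335, plus strand). Rela is shown because these letters are not in its window.
Tnfaip3: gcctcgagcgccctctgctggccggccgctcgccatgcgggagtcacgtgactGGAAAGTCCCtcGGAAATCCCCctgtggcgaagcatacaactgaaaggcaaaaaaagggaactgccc
Bcl3: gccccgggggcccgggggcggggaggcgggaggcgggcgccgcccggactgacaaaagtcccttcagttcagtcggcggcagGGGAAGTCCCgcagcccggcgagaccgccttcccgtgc
Nfkbia: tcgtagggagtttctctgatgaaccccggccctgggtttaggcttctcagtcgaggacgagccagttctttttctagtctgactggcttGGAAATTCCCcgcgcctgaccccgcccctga
Nfkb2: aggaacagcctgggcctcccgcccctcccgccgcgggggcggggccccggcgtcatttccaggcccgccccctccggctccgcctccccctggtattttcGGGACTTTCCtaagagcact
Rela: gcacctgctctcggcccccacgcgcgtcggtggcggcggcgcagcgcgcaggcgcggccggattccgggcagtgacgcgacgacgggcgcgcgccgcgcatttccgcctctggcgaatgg
In Nfkb1 the match was GGGAATTTCC, 4 to 13 bases after the start. The Nfkbib window held no match. A match is a description of these letters and not a measured binding site.

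Expression is given on the log2 scale of the deposited GCRMA values, on which a difference of 1 is a 2-fold change. A probe set needed log2 5 on 2 or more arrays to be tested with limma, which 16896 of 20242 reached, and Benjamini-Hochberg adjusted p-values are over all of them. The 8 measured genes each had a probe set at 5.12 or above on every array, so none of these 8 passed the filter through 1 group. The arrays of a group did not always resemble each other most. The first supine and first prone arrays correlated at 0.975 over all probe sets, and each at 0.883 to 0.935 with the other ventilated arrays. Supine replicate 2 correlated at 0.959 and 0.962 with the non-ventilated arrays. Supine replicate 3 had a log2 gap between 3′ and 5′ beta-actin signal of 9.10, while the remaining 7 arrays had 3.16 to 4.64, a known sign of degraded RNA. Alveolar type 2 markers were abundant on all arrays, with a summed log2 level of 16.58 to 17.17 in ventilated and 17.17 to 17.29 in non-ventilated lungs. Differences from non-ventilated lungs are therefore also given without the first supine and prone arrays, and without another array where that moved a value by over 1.5 times.

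The NF-kappaB genes as a group stood higher in ventilated lungs, unevenly between genes and between rats. Bcl3 showed the widest difference and Tnfaip3 the next, the subunits Nfkb2 and Relb stood moderately higher, Rela and Nfkb1 slightly, and Nfkbia and Nfkbib spread around the non-ventilated values. With 1 probe set per gene, the median log2 difference over the 8 genes was 0.91 in supine and 0.81 in prone lungs against non-ventilated ones, while the median over all probe sets was -0.07 and -0.12. These comparisons share the non-ventilated arrays. None of the 9 tested probe sets of these genes passed over all probe sets in limma (adjusted p from 0.108 for Bcl3 in prone lungs), where 0.0533% of all probe sets passed in the supine and 0.0533% in the prone comparison. With the replicate number as a block, 0 of the 16896 probe sets passed in either. At an unadjusted p under 0.05, 1 of 8 genes was higher in supine lungs (Bcl3), where 7.18% of all probe sets were, and 2 of 8 in prone lungs (Bcl3 and Tnfaip3), where 7.67% were.

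**Figure D1:**
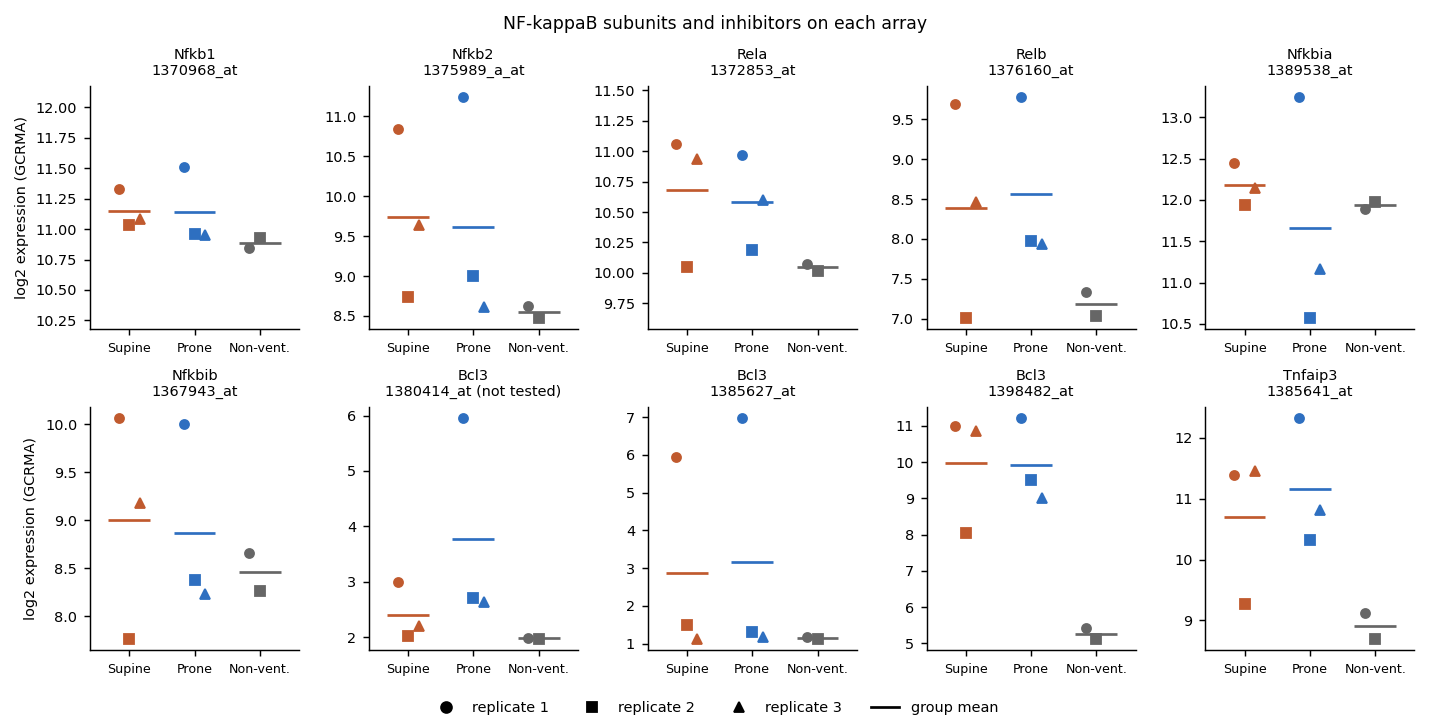
Log2 expression (vertical axis) of the 10 probe sets of 8 NF-kappaB genes on each array of the supine, prone and non-ventilated groups. Points are arrays, their shape gives the replicate number and bars are group means. Bcl3 1398482_at and Tnfaip3 stand above both non-ventilated arrays on all 6 ventilated arrays, and replicate 1 is the highest prone array in every panel.

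Bcl3 encodes an atypical IkappaB protein that works in the nucleus, where it binds homodimers of the Nfkb1 and Nfkb2 products and can raise or lower transcription. Its probe set 1398482_at read 10.99, 8.05 and 10.85 in supine replicates 1 to 3 and 11.22, 9.51 and 9.02 in prone replicates 1 to 3, against 5.42 and 5.12 in non-ventilated lungs. The groups did not overlap, and even the lowest ventilated array, supine replicate 2, was far above the higher control. The difference was 4.70 ± 0.99 in supine lungs (SE; 25.9-fold; limma adjusted p = 0.182) and 4.65 ± 0.99 in prone lungs (25-fold; adjusted p = 0.108). Taking all 6 ventilated arrays together gave 4.67 ± 0.88 (adjusted p = 0.0846), where 0.142% of all probe sets passed. Without supine replicate 2 the supine difference was 5.65 and passed (adjusted p = 0.0419), as did that of all ventilated arrays, at 5.15 (adjusted p = 0.03). Leaving out that array also raised the counts over all probe sets from 9 to 153 and from 24 to 381. Without the first supine and prone arrays the differences were 4.18 and 3.99. The control values lie near the filter level, where the size of a fold change is uncertain.

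The other Bcl3 probe sets read lower and behaved differently. Probe set 1385627_at read 5.95, 1.5 and 1.13 in supine and 6.98, 1.30 and 1.18 in prone lungs, against 1.17 and 1.12 in non-ventilated ones. Only the first supine and first prone arrays reached the filter level, and through them the probe set entered the test (1.72 ± 2.02 in supine and 2.01 ± 2.02 in prone lungs; limma adjusted p = 0.685 and 0.639). Without these 2 arrays the differences were 0.175 and 0.097, and without supine replicate 3 the supine one was 2.58. Probe set 1380414_at was not tested: it read 2.99, 2.02 and 2.20 in supine and 5.96, 2.71 and 2.63 in prone lungs, against 1.99 and 1.96 in non-ventilated ones. Averaging the tested Bcl3 probe sets gave 3.21 in supine (adjusted p = 0.334) and 3.33 in prone lungs (adjusted p = 0.273).

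Tnfaip3 encodes a ubiquitin-editing enzyme that cuts off NF-kappaB signalling from tumour necrosis factor and Toll-like receptors. It read 11.39, 9.28 and 11.46 in supine and 12.33, 10.33 and 10.81 in prone lungs, against 9.12 and 8.69 in non-ventilated ones. All 6 ventilated arrays lay above both controls, supine replicate 2 by a small margin. The difference was 1.80 ± 0.81 in supine (3.49-fold; limma adjusted p = 0.343) and 2.25 ± 0.81 in prone lungs (4.76-fold; adjusted p = 0.217). Without the first supine and prone arrays it was 1.46 and 1.67.

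Nfkbia encodes IkappaB alpha, the inhibitor that is destroyed and remade within each round of NF-kappaB activation. It read 12.44, 11.94 and 12.14 in supine and 13.25, 10.57 and 11.17 in prone lungs, against 11.89 and 11.98 in non-ventilated ones. The first prone array was the highest of all 8, whereas the prone replicates 2 and 3 were the lowest, 1.36 and 0.77 below the control mean. Its group differences were 0.24 ± 0.72 in supine and -0.27 ± 0.72 in prone lungs (limma adjusted p = 0.881 and 0.875). Without supine replicate 1 the supine value was 0.11. Leaving out prone replicate 1 gave -1.07 in prone lungs, leaving out prone replicate 2 gave 0.27, and leaving out prone replicate 3 gave -0.025. On prone replicates 2 and 3 Tnfaip3 was 1.42 and 1.91, and Bcl3 1398482_at 4.24 and 3.75, above the control mean, so these feedback genes lay on opposite sides of their control means there. The difference between the genes was not tested.

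Nfkbib encodes IkappaB beta, a slower-acting cytoplasmic inhibitor. It read 10.06, 7.76 and 9.18 in supine and 10.003, 8.38 and 8.23 in prone lungs, against 8.66 and 8.27 in non-ventilated ones. Both ventilated groups spanned the control values, with supine replicate 2 and prone replicate 3 below them. The difference was 0.53 ± 0.76 in supine and 0.40 ± 0.76 in prone lungs (limma adjusted p = 0.745 and 0.821), and without the first arrays of both groups 0.003 and -0.16. Without supine replicate 2 the supine value was 1.15, without prone replicate 2 or 3 the prone value was 0.65 or 0.72, and without non-ventilated replicate 2 the values were 0.34 and 0.21.

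Among the subunits, Nfkb2 and Relb, whose products pair in the slower non-canonical branch of the pathway, varied most. Nfkb2 encodes a precursor from which a subunit is cut. It read 10.85, 8.74 and 9.64 in supine and 11.25, 9.0 and 8.61 in prone lungs, against 8.62 and 8.47 in non-ventilated ones. The supine arrays all lay above the controls, while prone replicate 3 lay just below the higher control. The difference was 1.19 ± 0.87 in supine and 1.07 ± 0.87 in prone lungs (limma adjusted p = 0.517 and 0.561), and 0.64 and 0.26 without the first arrays of both groups. Relb read 9.69, 7.0 and 8.47 in supine and 9.79, 7.97 and 7.94 in prone lungs, against 7.33 and 7.03 in non-ventilated ones. All prone arrays lay above the controls, and supine replicate 2 lay just below them. The difference was 1.21 ± 0.85 in supine and 1.38 ± 0.85 in prone lungs (limma adjusted p = 0.503 and 0.439), and 0.55 and 0.775 without the first arrays. Without supine replicate 2 the supine difference of Relb was 1.90.

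Rela and Nfkb1, which form the common heterodimer of the canonical branch, moved within a narrower range. Rela, the subunit that carries the main activation domain, read 11.06, 10.05 and 10.93 in supine and 10.97, 10.19 and 10.60 in prone lungs, against 10.08 and 10.01 in non-ventilated ones. Its prone arrays did not overlap the controls, and supine replicate 2 lay between them. The difference was 0.63 ± 0.40 in supine and 0.54 ± 0.40 in prone lungs (limma adjusted p = 0.464 and 0.526), and 0.44 and 0.35 without the first arrays of both groups. Nfkb1, the precursor of the DNA-binding partner of Rela, read 11.33, 11.04 and 11.09 in supine and 11.51, 10.96 and 10.95 in prone lungs, against 10.84 and 10.93 in non-ventilated ones. All 6 ventilated arrays lay above both controls, prone replicates 2 and 3 by a small margin. The difference was 0.26 ± 0.30 in supine and 0.25 ± 0.30 in prone lungs (limma adjusted p = 0.673 and 0.69), with 95% intervals of -0.43 to 0.96 and -0.44 to 0.95. Without the first arrays it was 0.175 and 0.067.

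**Figure D2:**
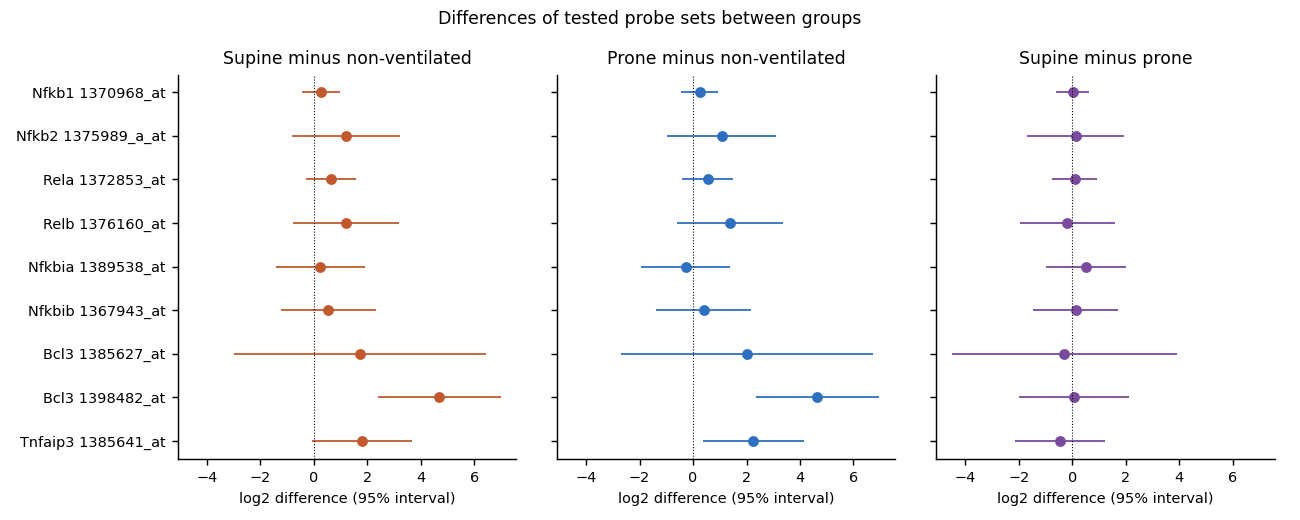
Log2 difference (horizontal axis) of each tested probe set in supine minus non-ventilated, prone minus non-ventilated and supine minus prone lungs. Points are limma estimates and lines their 95% intervals. The interval of Bcl3 1398482_at lies above 0 in both comparisons with non-ventilated lungs, that of Tnfaip3 in the prone one, and every interval of supine minus prone spans 0.

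Counted by overlap, 4 of the 8 genes (Nfkb1, Nfkb2, Bcl3 and Tnfaip3) had all supine arrays above both controls, where 20% of all probe sets did. In prone lungs 5 of 8 did (Nfkb1, Rela, Relb, Bcl3 and Tnfaip3), where 20.9% of all probe sets did. Over all 6 ventilated arrays 3 of 8 did (Nfkb1, Bcl3 and Tnfaip3), where 12.9% did. The same genes were counted without the first supine and prone arrays, when the shares of all probe sets were 28.1%, 29.9% and 19.3%. Without supine replicate 3 they were again the same genes, with 24.2% in supine and 14.2% in all ventilated lungs. None of the 8 genes lay below the controls on all arrays of a ventilated group.

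Supine and prone lungs did not differ detectably in these genes. The median log2 difference over the 8 genes was 0.07, against 0.03 over all probe sets, and 0 of 9 probe sets passed in limma, as 0% of all did; at an unadjusted p under 0.05 these counts were 0 of 9 and 4.09%. Bcl3 1398482_at stood at 0.05 (95% interval -2.01 to 2.11) and Tnfaip3 at -0.45 (-2.13 to 1.24). The widest estimate was that of Nfkbia at 0.51 (-0.98 to 2.01). The 8 genes' intervals were narrowest for Nfkb1 at 0.01 (-0.61 to 0.63), so differences by position of several-fold in most of the others were within the error. Leaving out 1 ventilated array turned the sign for each of the 9 probe sets, as it did for their median.

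The genes shared their highest array within each ventilated group, with 1 exception, and shared the lowest array in the supine group. Supine replicate 1 was the highest supine array for 7 of 8 genes, all but Tnfaip3, which was highest on supine replicate 3, and supine replicate 2 was the lowest for 8 of 8. Over all tested probe sets, 35.4% were highest on supine replicate 1 and 29.5% lowest on supine replicate 2. Prone replicate 1 was the highest prone array for 8 of 8 genes, against 43.8% of all probe sets, while the lowest prone array was replicate 3 for 5 genes and replicate 2 for 3. The first supine and first prone arrays were the highest pair of all 8 arrays for 7 of 8 genes, against 14.4% of all probe sets. The median difference of the 8 genes from their control means was 1.95, 0.08 and 0.99 on supine replicates 1 to 3 and 2.07, 0.30 and 0.31 on prone replicates 1 to 3, against 0.11 and -0.11 on the non-ventilated arrays. Without the first supine and prone arrays the median difference was 0.50 in supine and 0.30 in prone lungs. Without supine replicate 2 the supine median was 1.43.

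**Figure D3:**
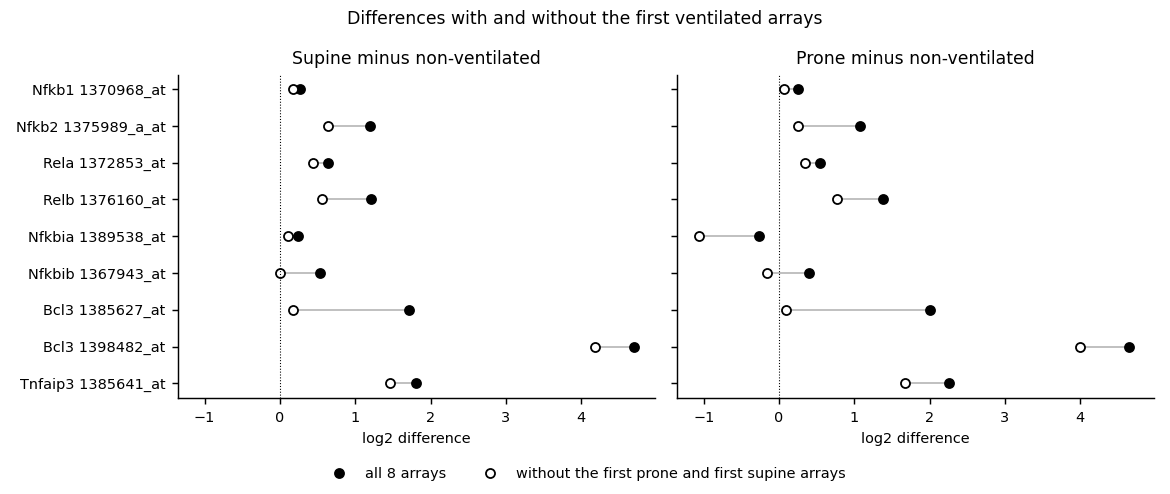
Log2 difference (horizontal axis) from non-ventilated lungs of each tested probe set in supine and prone lungs, with all 8 arrays (filled points) and without the first supine and first prone arrays (open points). The differences of Bcl3 1398482_at remain at 4.18 and 3.99 without these arrays and those of Tnfaip3 at 1.46 and 1.67, while Nfkb2, Relb and Nfkbib move toward 0 or past it.

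Neutrophil markers were highest on the same first arrays. The summed log2 level of 8 tested markers of 11 was 14.88 to 16.59 in supine and 14.93 to 16.73 in prone lungs, against 13.27 to 13.56 in non-ventilated ones, and the highest values were those of supine replicate 1 (16.59) and prone replicate 1 (16.73). Supine replicate 2, the lowest supine array for the NF-kappaB genes, had 15.44, above the 14.88 of supine replicate 3. The latter is the array with a sign of degraded RNA. Prone replicates 2 and 3 had 14.93 and 15.47. The dimmest of these markers, Cxcr2, reached 7.68. Macrophage and monocyte markers (7 of 10 tested) had sums of 15.39 to 15.70 in supine and 15.14 to 15.70 in prone lungs, against 15.63 on both non-ventilated arrays. Their median difference from the control means was 1.30, 0.21 and -0.19 on supine and -0.31, -0.66 and -0.72 on prone replicates 1 to 3. Endothelial markers (9 of 10) summed to 15.03 to 15.62 in supine and 14.80 to 15.69 in prone lungs, against 15.78 to 15.83 in non-ventilated ones, and lymphocyte markers (12 of 15) to 11.44 to 12.60 in supine and 9.91 to 12.09 in prone lungs, against 12.40 to 13.64. Alveolar type 1 markers (7 of 8) were lower on every ventilated array, at 15.46 to 15.95 in supine and 15.54 to 15.89 in prone lungs, against 16.28 to 16.33 in non-ventilated ones. Fibroblast markers (8 of 8) were lowest on the first supine (14.74) and first prone array (15.03), while the other ventilated arrays had 15.61 to 15.88, against 15.40 to 15.65 in non-ventilated lungs. The part of these shifts in the NF-kappaB values was not tested, and in whole tissue more cells of a type and more RNA per cell cannot be told apart.

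The rest of the pathway was read through lists chosen by role, also with earlier results known, comparing all ventilated with non-ventilated lungs. None of the 86 tested genes in these lists passed over all probe sets (limma), so the counts that follow are at an unadjusted p under 0.05, where 8.53% of all probe sets were higher and 10.6% lower. Of the 3 other IkappaB genes 1 was higher: Nfkbiz, a nuclear IkappaB like Bcl3, at 1.76 ± 0.64. It read 11.77, 9.93 and 12.58 in supine and 12.84, 11.98 and 12.11 in prone lungs, against 10.16 and 10.05 in non-ventilated ones. Its supine difference, 1.32, was 0.74 without supine replicate 3 and 2.07 without supine replicate 2. Nfkbid, another nuclear IkappaB, stood at 1.30 ± 0.72 and did not pass that threshold; it was 0.73 without the first arrays.

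Upstream of the factor, 8 receptors had a median difference of 0.87 and 2 were higher, Il1r1 (1.06 ± 0.26) and Tnfrsf11a (1.21 ± 0.45), the receptors of interleukin-1 and of RANK ligand. Tnfrsf11a was 0.77 without non-ventilated replicate 2. Il1r1 read 10.51 to 11.08 in supine and 10.62 to 10.79 in prone lungs, against 9.57 and 9.74 in non-ventilated ones. Of 6 ligands 1 was higher, Il1b, which encodes interleukin-1 beta: it read 11.95, 11.02 and 11.60 in supine and 13.14, 11.67 and 11.83 in prone lungs, against 9.49 and 8.16 in non-ventilated ones (3.05 ± 0.53; limma adjusted p = 0.0816). Tnf, tumour necrosis factor, read 10.23, 4.55 and 7.42 in supine and 9.74, 5.01 and 5.10 in prone lungs, against 3.28 and 3.49 in non-ventilated ones. All 6 ventilated values exceeded both controls, yet the spread was wide (3.62 ± 1.67; adjusted p = 0.284), and the difference was 2.14 without the first supine and prone arrays. Tnf passed the filter only through ventilated arrays, so higher ventilated values were a condition of its entry. With controls under the filter level the size of its difference is uncertain. Of the 6 ligands, Tnf and Il1b lay above both controls on all 6 ventilated arrays, as 12.9% of all probe sets did. Il18 (-0.45 ± 0.26) and Il33 (-1.40 ± 0.68) lay below both controls on all 6, as 16.7% did.

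Of 14 kinases and their partners 4 were higher and 2 lower, with a median of 0.57; the 2 lower ones are a share near that of all probe sets. Ikbkb, the catalytic kinase of the canonical branch, read 8.75 to 9.10 in supine and 8.59 to 9.35 in prone lungs, against 7.86 and 7.92 in non-ventilated ones (1.09 ± 0.28). Tab1, which activates the kinase upstream of it, was lower on all 6 ventilated arrays, at 8.16 to 8.76 in supine and 7.89 to 8.22 in prone lungs, against 9.15 and 9.60 (-1.14 ± 0.28). Of 10 adaptors 3 were higher and 0 lower, among them Traf3, which restrains the non-canonical branch (1.65 ± 0.32; limma adjusted p = 0.0871), and the ubiquitin ligase gene Birc2 (1.10 ± 0.29). Both exceeded the controls on all 6 ventilated arrays, as 12.9% of all probe sets did.

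Of 13 other negative regulators 2 were higher and 1 lower, with a median of 0.26. Zc3h12a, also in this list, had a control mean of 4.35 and passed the filter only through ventilated arrays. Higher ventilated values were thus a condition of its entry into the list. Tnip2, which encodes a partner of the Tnfaip3 protein, read 10.65, 8.61 and 10.60 in supine and 10.43, 8.77 and 9.34 in prone lungs, against 7.69 and 7.35 (2.21 ± 0.65; limma adjusted p = 0.149). Pdlim2, whose product marks Rela for destruction in the nucleus of mouse cells, was lower on all 6 ventilated arrays, at 8.93 to 10.92 in supine and 9.75 to 9.96 in prone lungs, against 11.26 and 11.54 (-1.52 ± 0.48), as 16.7% of all probe sets were. Its supine difference was -1.46, or -0.96 without supine replicate 3.

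Of 32 target genes 8 were higher and 2 lower, with a median of 1.40, against -0.10 over all probe sets. The lower ones, named after their values were seen, were the chemokine gene Ccl5 (-2.64 ± 1.13) and the plasminogen activator gene Plau (-1.52 ± 0.38). The gelatinase gene Mmp9, also a neutrophil marker, stood at 4.50 ± 0.77 and the survival gene Bcl2l1 at 1.43 ± 0.26 (limma adjusted p = 0.0816 and 0.082). Mmp9 read 3.62 and 3.81 in non-ventilated lungs and passed the filter only through ventilated arrays. Higher ventilated values were thus a condition of its entry, and the size of its difference is uncertain. Mmp9 is among the 8 genes counted as higher and in the list median, which the filter to that extent set in advance. How many other targets passed this way was not counted. Bcl2l1 read 9.12 to 9.72 in supine and 9.65 to 9.92 in prone lungs, against 8.09 and 8.27 in non-ventilated ones, and its difference was 1.38 without the first arrays. On single arrays the target list was highest on the first arrays, as was every other list but the kinases. Its median difference from the controls was 1.71, 0.12 and 1.12 on supine and 2.27, 1.04 and 0.46 on prone replicates 1 to 3. On the non-ventilated arrays it was 0.17 and -0.17.

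**Figure D4:**
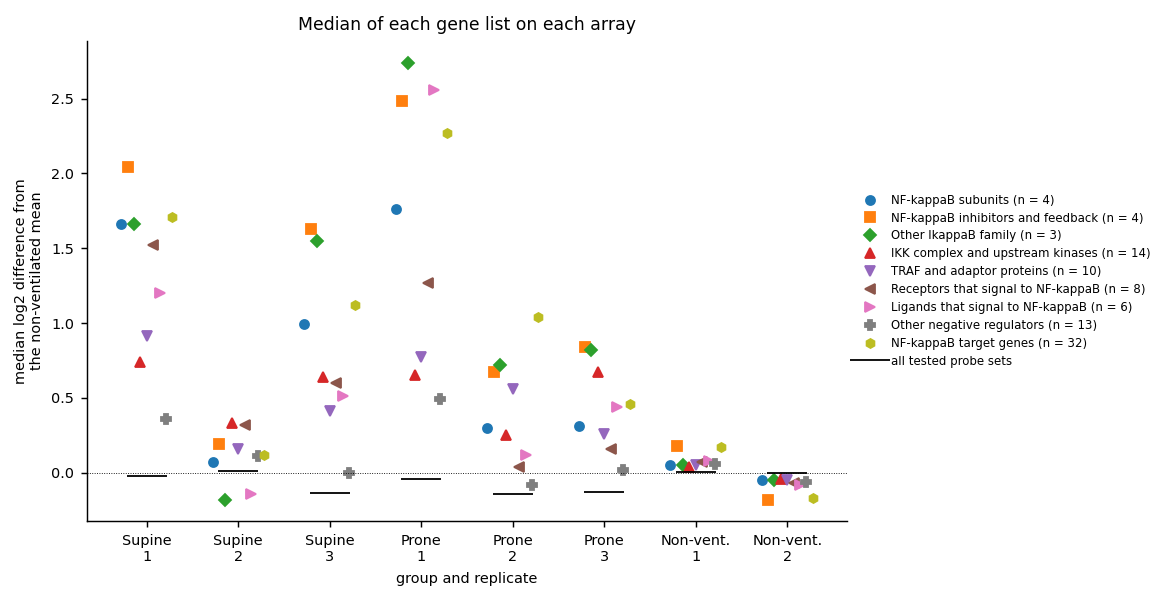
Median log2 difference from the non-ventilated mean (vertical axis) of each pathway list on each array (horizontal axis), with black dashes for all tested probe sets. The subunits, the inhibitors and the targets are highest on the first supine (1.66, 2.04 and 1.71) and first prone array (1.76, 2.48 and 2.27). The other lists are also highest there, except that the kinases have 0.67 on prone replicate 3 and 0.65 on prone replicate 1. The medians of all lists on supine replicate 2 lie between -0.18 and 0.33.

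**Figure D5:**
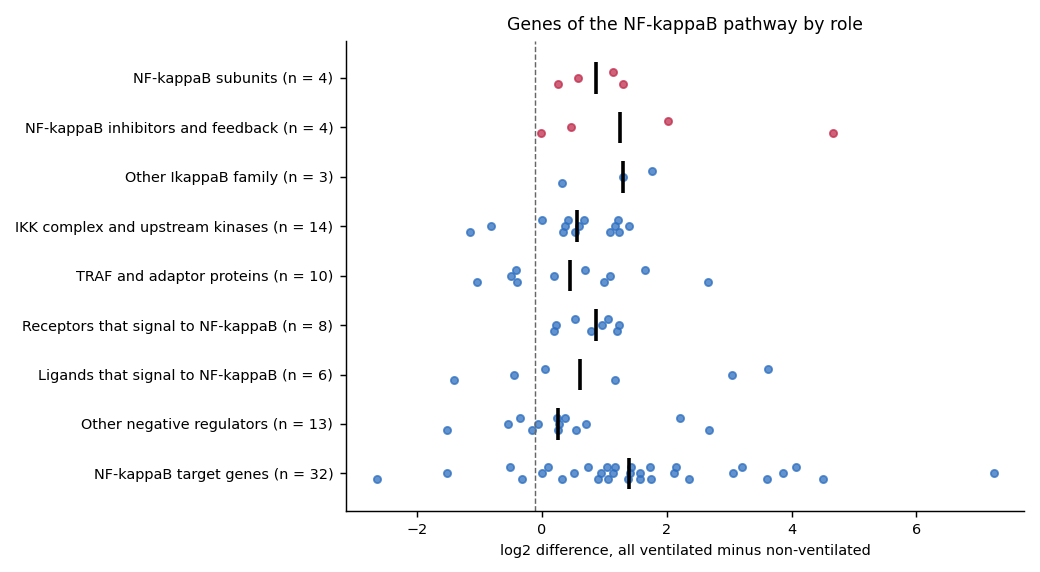
Log2 difference between all ventilated and non-ventilated lungs (horizontal axis) for each tested gene by role. Points are genes, red for the 8 NF-kappaB genes and blue for the other lists, black bars are list medians and the dashed line is the median of all probe sets (-0.10). Every list median lies to the right of that line, while the kinases, adaptors, ligands, other negative regulators and targets also hold genes to its left, the farthest being the target Ccl5 (-2.64).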

How the data were processed

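Per the labels, biotin-labelled targets were made from 300 ng of lung RNA. The deposited values are log2 expression per probe set, read as such from their range; per the submitters' processing notes GCRMA and Partek 6.5 were used, and GCRMA corrects background and equalizes array distributions. How the authors filtered, centred or tested is not stated in these sources. Detection calls were not used. The number of arrays, 3 supine, 3 prone and 2 non-ventilated, limits the precision.

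The 28 control probe sets were set aside. Of the others, 16896 at log2 5 or above on at least 2 arrays were fitted with limma 3.58.1 in R 4.3.3, with 1 mean per group over all 8 arrays, 5 residual and 2.51 prior degrees of freedom, two-sided tests and Benjamini-Hochberg adjustment per comparison; a probe set passed at an adjusted p under 0.05. The titles call samples biological replicates; p-values measure the spread between these samples. Gene symbols were those of the platform annotation and equalled the RefSeq symbols of GRCr8 for all 10 probe sets. The highest probe set by mean stood for a gene in lists. Named genes were all NF-kappaB members and, of each other list, those that passed, or else the 2 with the smallest p in all ventilated lungs. Members and lists (108 further genes, 86 tested) were chosen with earlier results of these data known. The fit was tested on simulated data. Deviations from group means of same-numbered arrays correlated at 0.72, 0.29 and 0.20 between supine and prone arrays. Between ventilated and non-ventilated arrays they correlated at 0.11 to 0.33. For differently numbered arrays the ranges were -0.59 to 0.40 and -0.33 to 0.21. Among supine and prone pairs only that of replicate 1 thus stood apart. The number was also fitted as a block. No batch is given in the labels. Alternatives varied the filter, scaling, variance trend, groups fitted and arrays.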

Additional observations from a re-analysis of the deposited data

Results flagged for a closer look

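Bcl3 probe set 1380414_at lay outside the tests because only 1 array reached the filter level. That array, prone replicate 1, read 5.96, above the non-ventilated values of 1.99 and 1.96. No test for outlying samples within a group was run on groups of 3 and 2 arrays.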

How the results depend on the processing

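The counts of probe sets that passed in limma were unstable. Against non-ventilated lungs, 9 probe sets passed in supine lungs, 9 in prone lungs and 24 in all ventilated lungs. These counts were 0, 0 and 0 with the replicate number as a block, 18, 35 and 118 with no filter, 0, 0 and 5 with a filter at log2 7, and 0, 0 and 11 with an intensity trend. Without the first supine and prone arrays they were 0, 728 and 413. With only the compared groups in the fit, 0 passed in supine and 119 in prone lungs; all ventilated lungs already used every array. Leaving out 1 array at a time gave 0 to 153 in supine (153 without supine replicate 2), 0 to 115 in prone (115 without prone replicate 1) and 0 to 381 in all ventilated lungs (381 without supine replicate 2), and 0 to 3 between supine and prone lungs, where 0 passed. Of the NF-kappaB probe sets, 0 to 1 passed in supine and in all ventilated lungs, Bcl3 1398482_at without supine replicate 2. With the block 0 of them passed, as 0 of all probe sets did, so these calls cannot show whether the block mattered.

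The median difference between supine and prone lungs, 0.07, ran from -0.41 to 0.57 with 1 array left out. By probe set that range was -0.084 to 0.20 for Nfkb1, -0.43 to 0.94 for Nfkb2, -0.10 to 0.41 for Rela, -0.83 to 0.51 for Relb, -0.032 to 1.31 for Nfkbia, -0.40 to 0.75 for Nfkbib, -0.46 to 1.01 for Bcl3 1398482_at, -1.84 to 1.62 for Bcl3 1385627_at and -0.86 to 0.27 for Tnfaip3. It was also -0.058 for Nfkb1 and -0.019 for Bcl3 1398482_at with arrays centred, 0.078 for Bcl3 1385627_at without the first arrays, and -0.12 for the mean of the Bcl3 probe sets. Against non-ventilated lungs, Nfkbib in prone lungs was -0.16 without the first arrays and -0.16 to 0.72 with 1 array left out, and in all ventilated lungs -0.08 without the first arrays. Nfkbia in prone lungs ran from -1.07 to 0.27, and in all ventilated lungs from -0.41 to 0.26, with 0.12 under the block, 0.094 centred and 0.045 with quantile normalization. Centring the arrays gave medians over the 8 genes of 0.99 in supine, 0.95 in prone and 0.97 in all ventilated lungs, against 0.91, 0.81 and 0.86 as reported. The cause was not tested. The counts without overlap, without the first arrays and without supine replicate 3, were chosen after seeing the data.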
